A study of Homo sapiens with 6 samples.

Results

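The glycolytic enzymes described here are 10 genes of the pathway that breaks glucose down to pyruvate and lactate: HK1, HK2, GPI, PFKP, ALDOA, GAPDH, PGK1, ENO1, ENO2 and LDHA. They were taken by gene symbol, and all 10 were found among the 13439 genes listed. Their expression was compared in cells labelled Saos-2, an established human osteosarcoma line, after 24 h with AIL at 0.20 µM, the concentration the labels give as its IC50, or after 24 h with its solvent, DMSO. Ailanthone (AIL) belongs to the quassinoids, bitter terpenoids of the tree Ailanthus altissima. Each group had 3 libraries that the labels call biological replicates, with no word on separate cultures. P-values therefore measure the spread between these 6 samples. The study asked which pathways AIL altered, and its title names serine biosynthesis.

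Glycolysis first traps and splits glucose, using ATP, and then recovers ATP while oxidising the products to pyruvate. Its intermediate 3-phosphoglycerate, the product of PGK1, is also the starting point of serine synthesis: PHGDH oxidises it, and PSAT1 and PSPH complete the serine. Of the 10 genes, 7 act up to 3-phosphoglycerate (HK1, HK2, GPI, PFKP, ALDOA, GAPDH and PGK1) and 3 after it (ENO1, ENO2 and LDHA). Osteosarcoma cells, like many tumour cells, are known to make lactate from glucose even in the presence of oxygen.

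Values are TMM-normalized CPM, read counts divided by a scaled library size. The TMM scaling takes most genes as unaltered. The low values moved in steps of 1 read, which put the scaled depth at 35910000 to 38050000 reads in the AIL libraries and 32540000 to 35830000 reads in the DMSO libraries. Every glycolytic gene had at least 427 reads in every library by this step. The mitochondrially encoded transcripts, read as a sign of RNA quality, summed to 3600.5 to 3726 CPM under AIL and 4205 to 4374 CPM under DMSO, with 10 of 13 called lower, MT-CO1, MT-CO2 and MT-ND6 among them, and 0 higher. Over all genes tested, 25.9% were called lower. The part of the mitochondrially encoded transcripts in the results below was not tested. Of 7 osteoblast lineage markers, 3 were read: RUNX2 at 4.72 ± 0.287 CPM under AIL and 4.66 ± 0.295 CPM under DMSO (SD, n = 3 each), and SPP1 and SPARC, both below 1 CPM in each group. SPP1 and SPARC were thus near 0 in libraries labelled Saos-2, while RUNX2 had at least 144 reads in every library. The identity of the line was not tested further. The 3 markers summed to 4.87 to 5.45 CPM under AIL and 4.69 to 5.25 CPM under DMSO, while ALPL, SP7, COL1A1 and COL1A2 were not analysed here. Of 8 markers of other cells only CDH5 was read, at a mean of 0.0633 CPM under AIL and 0.0800 CPM under DMSO.

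Upstream sequences are shown for 4 genes: GAPDH and ENO2, which had the largest rises among the 10 on the deposited scale, PGK1, which alone fell, and ENO1, which has no match to the motif searched. Each is the 250 bases before a start that RefSeq lists for the gene on GRCh38.p14, written 5′ to 3′ on the gene's strand. A listed start need not be the main one of the gene, and which starts these cells used was not tested. Capitals mark ACGTG or its reverse complement CACGT, 1 form of the core recognised by hypoxia-inducible factors. Another form, GCGTG, was not searched. Where ACGTG and CACGT overlap they form CACGTG, the E-box recognised by MYC with MAX and by other factors.
GAPDH, chr12:6535014-6535263, plus strand: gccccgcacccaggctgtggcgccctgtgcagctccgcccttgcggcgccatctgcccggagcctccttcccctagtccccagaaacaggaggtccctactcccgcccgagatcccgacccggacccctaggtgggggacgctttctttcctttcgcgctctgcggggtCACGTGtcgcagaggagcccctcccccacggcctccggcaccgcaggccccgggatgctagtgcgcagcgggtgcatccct
PGK1, chrX:78103998-78104247, plus strand: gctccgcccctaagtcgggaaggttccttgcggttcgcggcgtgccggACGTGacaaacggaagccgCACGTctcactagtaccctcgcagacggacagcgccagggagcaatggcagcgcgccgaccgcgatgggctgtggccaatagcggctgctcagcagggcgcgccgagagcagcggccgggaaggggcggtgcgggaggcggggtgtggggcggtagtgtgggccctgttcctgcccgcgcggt
ENO1, chr1:8878687-8878936, minus strand: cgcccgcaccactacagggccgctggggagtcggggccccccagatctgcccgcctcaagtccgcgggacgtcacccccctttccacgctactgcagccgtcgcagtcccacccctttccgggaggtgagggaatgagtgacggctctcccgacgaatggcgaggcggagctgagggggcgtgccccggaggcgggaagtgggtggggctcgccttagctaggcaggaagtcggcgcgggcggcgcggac
ENO2, chr12:6914330-6914579, plus strand: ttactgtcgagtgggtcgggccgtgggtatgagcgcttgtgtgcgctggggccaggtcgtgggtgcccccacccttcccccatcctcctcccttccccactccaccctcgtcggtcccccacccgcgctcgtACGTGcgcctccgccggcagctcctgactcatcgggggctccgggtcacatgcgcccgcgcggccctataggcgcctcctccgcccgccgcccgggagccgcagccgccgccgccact
The GAPDH window holds 1 site, a CACGTG that begins 81 bases before the listed start, and the ENO2 window holds 1 site at 118 bases. The PGK1 window holds 2 separate sites, at 202 and 183 bases. The ENO1 window holds none of these, although the unsearched GCGTG can be read in it, as it can in the PGK1 window. RefSeq lists 23 starts for the 10 genes, and 11 of these windows (47.8%) hold ACGTG on either strand, against 21.9% of the 14624 windows of listed genes. At least 1 start of 8 of the 10 genes has a match, against 28.5% of the 9963 listed genes with an entry, but genes with more starts have more windows to match. CACGTG stands in 4 of the 23 windows (17.4%), against 8.07% of windows of listed genes. The 4 genes shown were picked by their change or lack of a match. Of the genes that did not pass the test below, LDHA has 3 sites in 1 window and 0 in the other. Each HK2 window holds 2 sites and each ALDOA window 1, and no HK1 window has a match. These are letter matches, and no binding was measured.

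The glycolytic transcripts did not move as 1 block under AIL. With limma, 5 of the 10 rose (GPI, PFKP, GAPDH, ENO1 and ENO2), PGK1 fell, and HK1, HK2, ALDOA and LDHA did not pass an adjusted p of 0.05. Across all 11069 genes tested, 54.1% were called, 28.2% higher and 25.9% lower, so 6 calls among 10 genes lie near the background and say little about the pathway as such. The changes were small: the log2 differences, taken as AIL minus DMSO of log2(CPM + 1), ran between -0.12 and 0.42 with a median of 0.08, against a median of 0.01 over all genes tested. None of the 10 reached 1.5-fold on that scale, which 1.69% of tested genes did. These are relative levels in bulk RNA, in which a change in all cells and a change in only some of them cannot be told apart. For 7 of the 10, the AIL and DMSO ranges were separate, 6 higher and 1 lower, against 60.1% of tested genes, 30.9% higher and 29.2% lower. Strand is not known to have been used in counting. Genes on the other strand overlap the whole spans of GAPDH (AC006064.4), ENO1 (ENO1-AS1), PGK1 (PGAM4), HK1 (RPS15AP28), HK2 (AC019069.1) and ALDOA (AC093512.1). Where exons overlap too, which was not examined, reads may be counted for either gene.

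**Figure D1:**
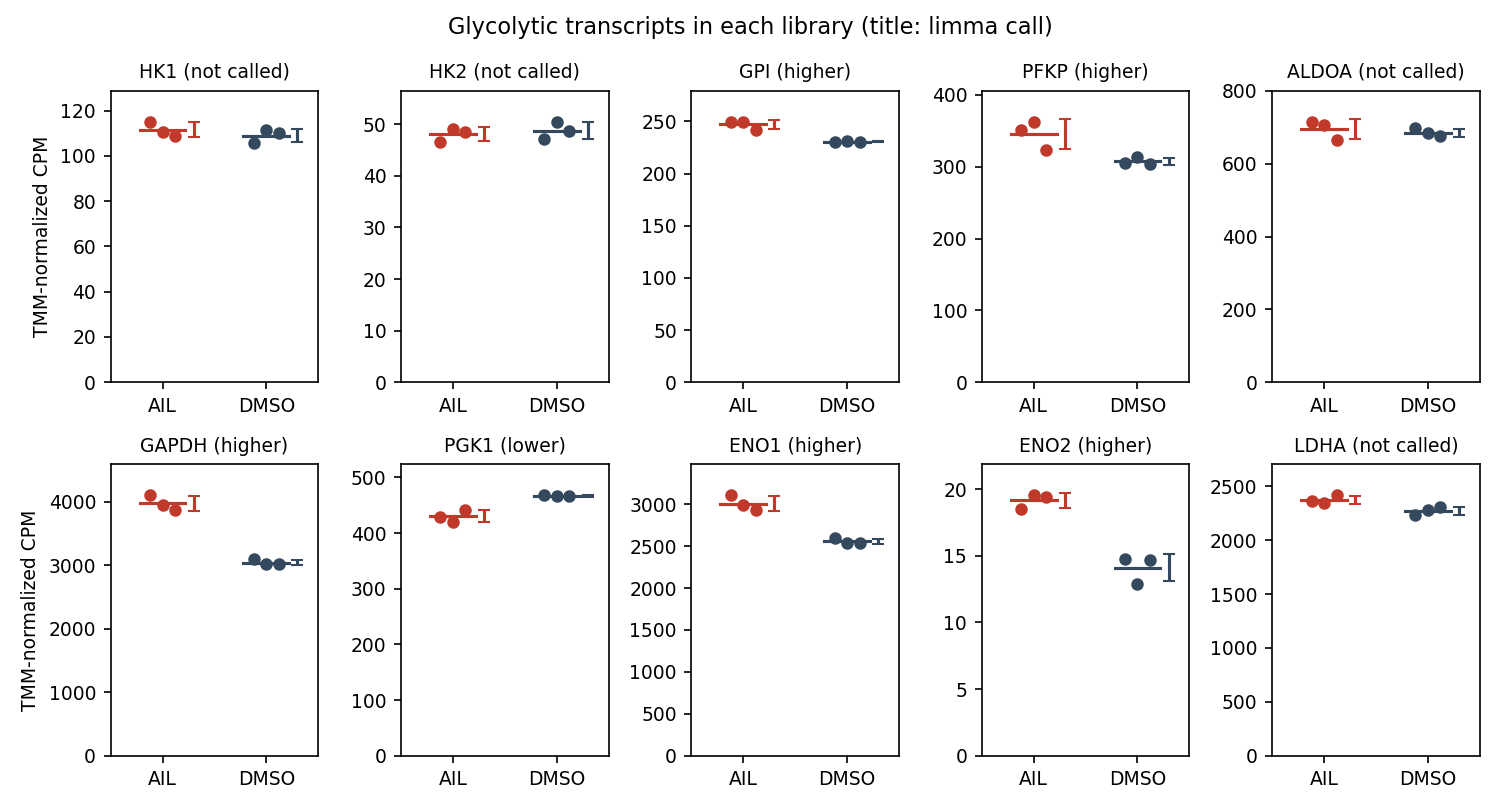
TMM-normalized CPM of each of the 10 glycolytic genes (y axis, from 0) in the 3 AIL libraries (red, left) and the 3 DMSO libraries (dark, right); points are libraries, horizontal lines are means and the bars beside them are 1 SD. The AIL points lie clear above the DMSO points for GPI, PFKP, GAPDH, ENO1, ENO2 and LDHA, clear below them for PGK1, and among them for HK1, HK2 and ALDOA.

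The hexokinases, which trap glucose in the cell as glucose 6-phosphate, showed no difference that passed. HK1, the form found in most tissues, measured 115.1, 110.8 and 108.7 CPM under AIL, against 105.7, 111.2 and 109.9 CPM under DMSO. HK2, the form often raised in tumours, measured 46.6, 49.1 and 48.5 CPM under AIL, against 47.1, 50.5 and 48.7 CPM under DMSO. Both genes had overlapping groups. The 95% interval of the log2 difference was -0.03 to 0.10 for HK1 and -0.10 to 0.06 for HK2, and values within these bounds were not distinguishable here (limma adjusted p = 0.384 for HK1 and 0.683 for HK2). HK2 made up 28.8 to 30.9% of the summed hexokinase CPM under AIL and 30.7 to 31.2% under DMSO, and the log2 ratio of HK2 to HK1 differed by -0.05 (two-sided exact permutation test, p = 0.50, adjusted over 2 isozyme pairs 0.50; 3 against 3 cannot go below 0.10). Without AIL replicate 1 this difference was -0.0082.

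GPI, which turns glucose 6-phosphate into fructose 6-phosphate, rose by a small amount. Its levels were 249.7, 249.7 and 241.9 CPM under AIL, against 230.4, 230.9 and 230.0 CPM under DMSO. All AIL libraries lay above all DMSO libraries, and the mean was 7.24% higher (log2 difference 0.10, SE 0.0250, limma adjusted p = 0.00262). PFKP, the platelet-type phosphofructokinase, catalyses the committed step of the pathway. It measured 350.8, 362.7 and 322.9 CPM under AIL, against 305.8, 313.0 and 303.7 CPM under DMSO. The AIL libraries again all lay above those of DMSO, although AIL replicate 3 came close to them, and the spread was 20.4 CPM under AIL and 4.86 CPM under DMSO (SD, n = 3 each). PFKP was 12.3% higher (log2 difference 0.17, SE 0.0341, limma adjusted p = 5.31e-04).

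ALDOA, the aldolase that splits the 6-carbon sugar, was level on the deposited scale. It ranged over 665.2 to 715.3 CPM under AIL and 675.4 to 697.5 CPM under DMSO, so the AIL range enclosed that of DMSO. The log2 difference was 0.02, with a 95% interval of -0.04 to 0.08 (limma adjusted p = 0.554). This sign turned with quantile normalization, to -0.085 (limma adjusted p = 0.00546), and after a trend with length, GC content and abundance was removed, to -0.076 (limma adjusted p = 0.0304). In addition, 37.9% of the 50-base words of ALDOA transcripts in GENCODE release 29 also occur in other genes, nearly all in the overlapping gene AC093512.2. This is a share of words and not of reads, so the level of ALDOA is uncertain by an amount not measured.

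GAPDH, which oxidises glyceraldehyde 3-phosphate and makes NADH, carried the largest change in CPM. It measured 4100.4, 3953 and 3866 CPM under AIL, against 3089, 3019 and 3011 CPM under DMSO. The lowest AIL library stood far above the highest DMSO library. The mean was 3973 ± 119 CPM under AIL and 3039.5 ± 43.0 CPM under DMSO (SD, n = 3 each), 30.7% higher (log2 difference 0.39, SE 0.0285, limma adjusted p = 6.91e-09), and 4.90% of tested genes had a greater log2 difference. GAPDH was the gene with the second highest CPM in each AIL library and the third in each DMSO library. The size of its rise depended on scaling: the log2 difference was 0.13 with quantile normalization (limma adjusted p = 2.67e-06) and 0.14 with the trend over length, GC content and abundance removed (limma adjusted p = 3.61e-04). Transcripts of high level tended to be higher under AIL. Of the 100 most abundant tested genes, 70 were called higher and 13 lower, with a median log2 difference of 0.18. Over all genes tested, 28.2% were called higher and 25.9% lower.

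PGK1, which makes 3-phosphoglycerate and the first ATP recovered, was the only one of the 10 to fall. Its levels were 429.7, 419.9 and 442.1 CPM under AIL, against 467.9, 465.7 and 465.6 CPM under DMSO. All AIL libraries lay below all DMSO libraries, whose SD was 1.27 CPM (n = 3). The mean fell by 7.68% (log2 difference -0.12, SE 0.0251, limma adjusted p = 8.80e-04), and 25.9% of tested genes had a lower log2 difference. GAPDH and PGK1 catalyse consecutive steps, and the ratio of their CPM was 8.74 to 9.54 under AIL and 6.47 to 6.60 under DMSO. The pair thus moved apart in every AIL library. The call of PGK1 held with quantile normalization (-0.12) and with the trend removed (-0.10).

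The enolases act after the branch to serine and turn 2-phosphoglycerate into phosphoenolpyruvate. ENO1, the form found in most tissues, measured 3108.3, 2990.35 and 2927 CPM under AIL, against 2594, 2539 and 2537 CPM under DMSO. The groups were clear of each other, and the mean was 17.7% higher (log2 difference 0.23, SE 0.0279, limma adjusted p = 1.98e-06). With the trend over length, GC content and abundance removed, the log2 difference of ENO1 was 0.044 and no longer passed (limma adjusted p = 0.193). ENO2, the form typical of neurons, was low in these cells. It measured 18.5, 19.55 and 19.4 CPM under AIL, against 14.75, 12.9 and 14.7 CPM under DMSO. All AIL libraries lay above all DMSO libraries, and the mean was 35.7% higher (log2 difference 0.42, SE 0.0581, limma adjusted p = 1.12e-05). ENO2 stayed called with quantile normalization (0.38) and with the trend removed (0.39). ENO2 made up 0.593 to 0.659% of the summed enolase CPM under AIL and 0.506 to 0.575% under DMSO, and the log2 ratio of ENO2 to ENO1 was higher by 0.18 (two-sided exact permutation test, p = 0.10, the smallest that 3 against 3 allows, and 0.20 adjusted over the 2 isozyme pairs). At a pseudocount of 5 that difference was 0.11 (exact permutation test, p = 0.30).

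LDHA, which reduces pyruvate to lactate, lay at the edge of the test. It measured 2360.3, 2345 and 2417 CPM under AIL, against 2236, 2279 and 2309.6 CPM under DMSO. The groups did not overlap, but the gap between them was smaller than either SD. The log2 difference was 0.06 with a 95% interval of 0.01 to 0.12, and LDHA did not pass (limma adjusted p = 0.0531). It passed with the replicate number as a block (limma adjusted p = 0.0073), while with the trend over length, GC content and abundance removed the value was -0.093 (limma adjusted p = 0.00546). Without AIL replicate 2 it passed as well (limma adjusted p = 0.0327). LDHB, the partner subunit, named after its values were seen, was higher, at 1052 ± 27.6 CPM under AIL and 960.8 ± 11.5 CPM under DMSO (SD, n = 3 each; limma adjusted p = 3.63e-04), though 29.4% of its 50-base words occur in other genes. The ratio of LDHA to LDHB was 2.24 to 2.29 under AIL and 2.30 to 2.42 under DMSO.

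**Figure D2:**
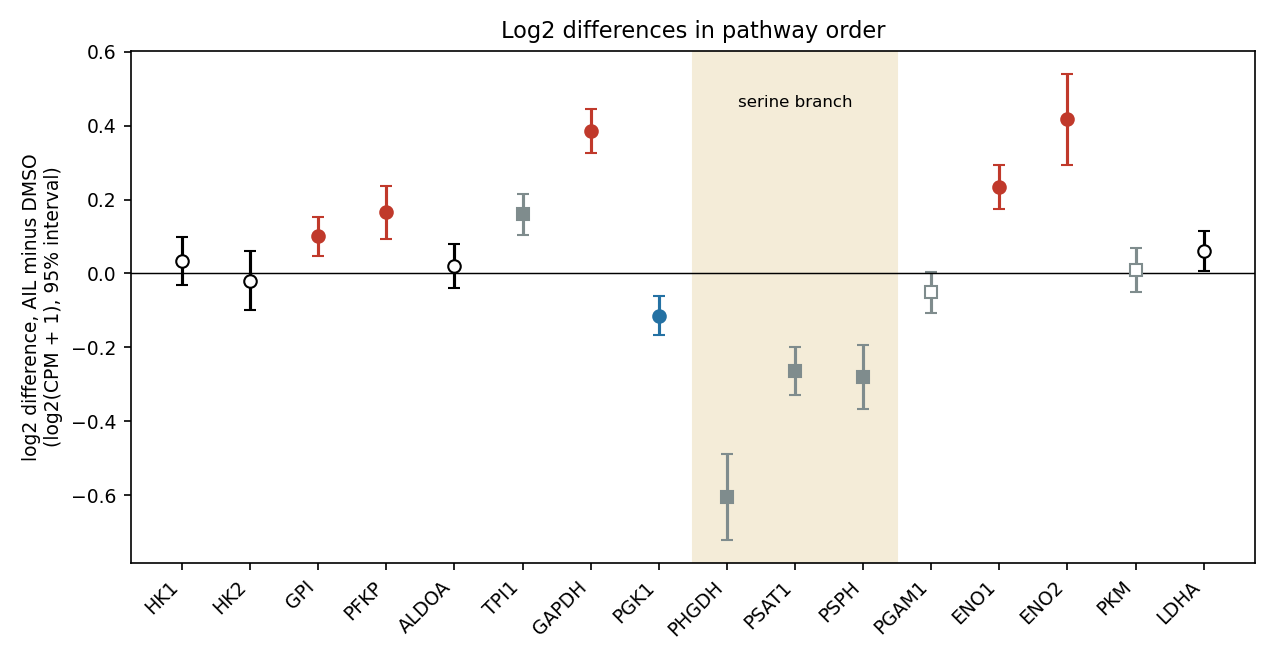
Log2 differences of log2(CPM + 1), AIL minus DMSO (y axis), with 95% intervals from limma, for genes in pathway order (x axis); circles are the 10 glycolytic genes (red higher, blue lower), grey squares are other genes of the route, open symbols did not pass, and shading marks the serine branch. GAPDH at 0.39 and PGK1 at -0.12 stand side by side at the steps that lead to 3-phosphoglycerate, and PHGDH at -0.60 is the lowest.

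Set against the branch to serine, the 7 genes that act up to 3-phosphoglycerate counted 3 higher, 1 lower and 3 that did not pass, with a median log2 difference of 0.03. Of the 3 genes that act after it, 2 were higher and 1 did not pass, with a median of 0.23. These counts stand beside 28.2% called higher and 25.9% lower over all genes tested, and such small groups say little against that share. With the trend over length, GC content and abundance removed, the medians were 0.04 after the branch and 0.07 up to it, so their order turned. The difference between these 2 groups of genes was not tested. Summed over the 7 upstream genes, the level was 5695 to 6008 CPM under AIL and 4844 to 4943 CPM under DMSO. GAPDH supplied nearly all of that gap, since the other upstream genes summed to 1829 to 1907 CPM under AIL and 1833 to 1855 CPM under DMSO. The 3 downstream genes summed to 5355 to 5487 CPM under AIL and 4831 to 4861 CPM under DMSO. All 10 together took 1.28 to 1.32% of the listed CPM in the AIL libraries and 1.14 to 1.16% in the DMSO libraries.

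The 3 genes of the branch itself all fell, while 25.9% of all genes tested were called lower. PHGDH, the enzyme that draws 3-phosphoglycerate into serine, measured 26.0, 25.6 and 21.97 CPM under AIL, against 38.6, 38.2 and 36.3 CPM under DMSO. The AIL libraries all lay below those of DMSO (log2 difference -0.60, limma adjusted p = 7.96e-08). PSAT1 and PSPH had log2 differences of -0.26 and -0.28 (limma adjusted p = 1.46e-06 and 1.75e-05). For each CPM of GAPDH there were 0.00568 to 0.00647 CPM of PHGDH under AIL and 0.0121 to 0.0127 under DMSO.

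Between genes, levels can be compared only per length, here CPM per kilobase of the main transcripts (APPRIS principal) in GENCODE release 29. On this scale of levels GAPDH was highest, at 2660 ± 79.5 under AIL and 2040 ± 28.8 under DMSO (SD, n = 3 each). ENO1 and LDHA followed, at 1460 ± 44.5 and 1270 ± 20.2 under AIL, where their libraries did not overlap, and at 1240 ± 15.6 and 1210 ± 19.6 under DMSO, where they did. ALDOA came next, at 459 ± 17.7 under AIL and 453 ± 7.35 under DMSO, and PFKP, PGK1 and GPI lay between 73.9 and 130 in group means. HK1 was near 30 in both groups, at 30.9 under AIL and 30.2 under DMSO. HK2 and ENO2 were lowest, at 8.33 and 7.37 under AIL and 8.45 and 5.43 under DMSO. The order of the 10 was the same in both groups, and ENO1 with LDHA under DMSO were the only neighbours whose libraries overlapped. The order rests on the transcript lengths assigned.

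For the lists that follow, the shares over all genes tested were 28.2% called higher and 25.9% lower. In a list of further enzymes of glycolysis and their relatives, 5 of 9 tested rose and 2 fell, with a median log2 difference of 0.11. One of those that rose, PGAM5, is a mitochondrial protein phosphatase related to the mutases and not a glycolytic enzyme, and its own value (0.11) is that median. TPI1, which interconverts the products of the split, measured 899.5 ± 24.7 CPM under AIL and 804.5 ± 14.7 CPM under DMSO (SD, n = 3 each; limma adjusted p = 6.23e-05), but it did not pass with quantile normalization (0.01, limma adjusted p = 0.641) or with the trend removed (0.04, limma adjusted p = 0.204). PKM, which makes pyruvate, was at 2319 ± 69.6 CPM under AIL and 2303 ± 36.4 CPM under DMSO and did not pass (limma adjusted p = 0.795), though with the trend removed the log2 difference was -0.14 (limma adjusted p = 3.79e-04). PGAM1, the mutase just after the branch, was at 528.5 ± 16.6 CPM under AIL and 547.3 ± 4.73 CPM under DMSO. It did not pass (limma adjusted p = 0.113), but was called lower with the replicate block (limma adjusted p = 0.0339), with quantile normalization (0.0230), with the trend removed (0.00223) and without AIL replicate 1 (0.0265), and 30.5% of its 50-base words occur in other genes. The ADP-dependent glucokinase ADPGK fell (log2 difference -0.33), as did the muscle-type phosphofructokinase PFKM (-0.18), while the liver type PFKL, named after its values were seen, rose (0.16). PFKP and PFKM kept these opposite directions under all 15 alternatives, and PFKL was not tested under them.

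The counts of the next lists are to be read beside the 28.2% of all tested genes called higher and the 25.9% called lower. Several lie near these shares and say little about the pathways as such. Of 12 tested genes of glucose and lactate transport and of glycolysis control, 3 rose and 3 fell (median 0.01). The lactate carriers SLC16A1 and SLC16A3 fell by 0.34 and 0.25 on the log2 scale. Their chaperone BSG rose, at 315.9 ± 13.6 CPM under AIL and 261.3 ± 5.62 CPM under DMSO (SD, n = 3 each; limma adjusted p = 9.76e-07). Of 13 genes for the entry of pyruvate into mitochondria, 1 rose and 4 fell (median -0.02). PDHB of pyruvate dehydrogenase rose (0.19), and DLD, shared with other dehydrogenases, and the phosphatase PDP1 fell (-0.30 and -0.14, with PDP1 not passing after removal of the trend, limma adjusted p = 0.0608). In the pentose phosphate pathway, which branches off at glucose 6-phosphate, 3 of 9 rose and 1 fell (median 0.10). PGD fell (-0.29), while PGLS, which acts just before it, rose (0.44) and RPE rose (0.14). Of 13 genes of glycerol, gluconeogenesis and glycogen, 4 rose and 3 fell (median -0.0024). The glycogen phosphorylase PYGL rose (0.30), while PYGB, another glycogen phosphorylase, named after its values were seen, fell (-0.26). UGP2, which makes UDP-glucose, fell (-0.35). Of 11 genes of the hexosamine and fructose branches, 6 rose and 2 fell (median 0.09). GFPT2 and GFPT1, which draw fructose 6-phosphate into hexosamines, fell (-0.53 and -0.17), while MPI, which links fructose and mannose phosphates, rose (0.36). All values in brackets without a p are log2 differences of genes that passed.

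**Figure D3:**
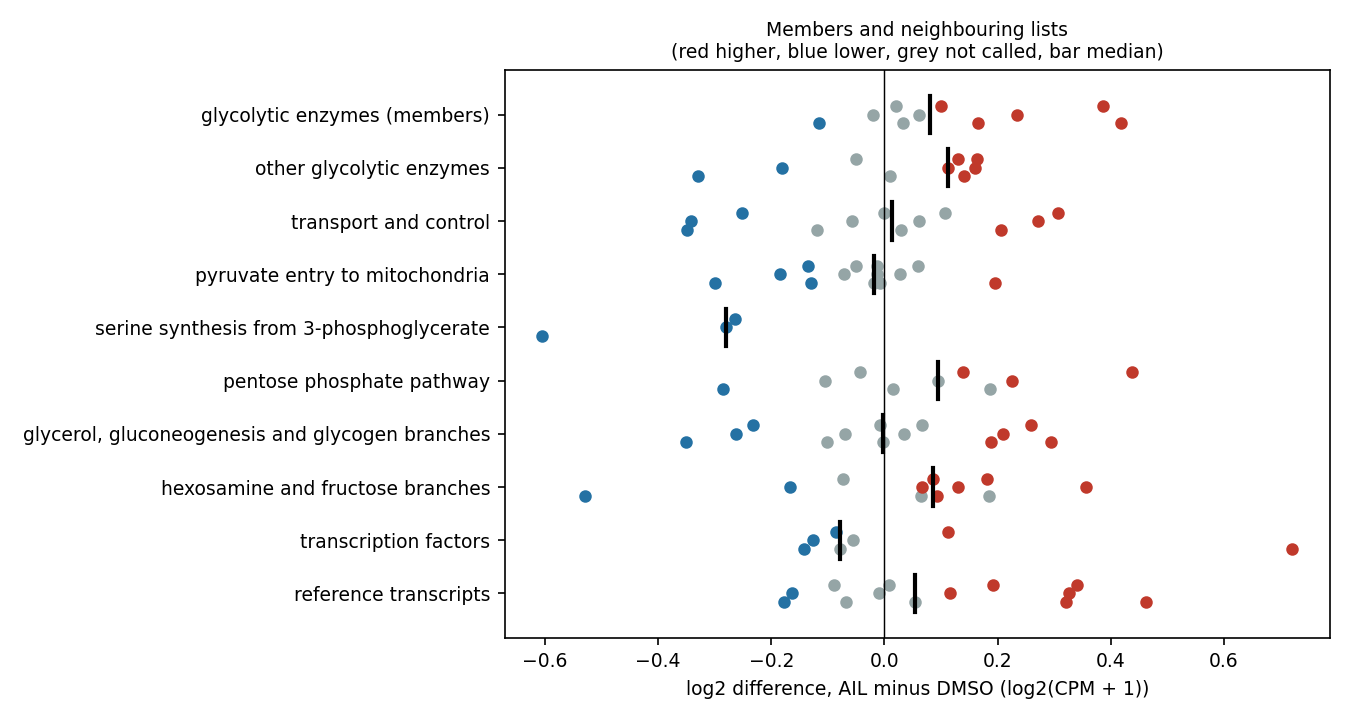
Log2 differences, AIL minus DMSO (x axis), of the tested genes of the 10 glycolytic genes and of 9 neighbouring lists (y axis); points are genes (red higher, blue lower, grey did not pass) and black bars are medians. Each list other than serine synthesis has genes on both sides of 0, and the glycolytic genes have their median at 0.08.

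Transcription factors known to act on glycolytic genes gave 2 higher, 3 lower and 2 that did not pass of 7 tested. Among all genes tested, 28.2% were called higher and 25.9% lower. EPAS1, which encodes the hypoxia-inducible factor HIF-2α, rose by 0.72 on the log2 scale, at 18.8 ± 0.881 CPM under AIL and 11.03 ± 0.647 CPM under DMSO (SD, n = 3 each; limma adjusted p = 2.32e-08). HIF1A fell by 0.09, at 150.5 ± 2.12 CPM under AIL and 159.8 ± 3.97 CPM under DMSO, a call close to the threshold (limma adjusted p = 0.0153). HIF1A did not pass without DMSO replicate 2 (limma adjusted p = 0.0519), without DMSO replicate 3 (0.0818), with no intensity trend in the fit (0.0641) or with the trend over length, GC content and abundance removed (0.769). MYC fell by 0.14 (limma adjusted p = 6.48e-04) and SP1 fell by 0.13 (limma adjusted p = 8.89e-04).

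GAPDH is widely used as a reference transcript, and 13 genes often used that way were read beside it, GAPDH itself not among them. Of these, 6 rose, 2 fell and 5 did not pass, with a median log2 difference of 0.05. The shares over all genes tested were 28.2% higher and 25.9% lower. PPIA and RPL13A rose by a little less than GAPDH (0.34 and 0.33). With quantile normalization both values were 0.16, above the 0.13 of GAPDH. ACTB, named after its values were seen, fell, at 2510.3 ± 91.5 CPM under AIL and 2839.5 ± 34.5 CPM under DMSO (SD, n = 3 each; limma adjusted p = 5.75e-05). The ratio of GAPDH to ACTB was therefore 1.57 to 1.60 under AIL and 1.06 to 1.08 under DMSO. Of the 13, 5 lay within 0.1 of 0 on the log2 scale.

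Among 4122 other genes that averaged 50 CPM or more, those whose log2(CPM + 1) followed GAPDH most closely over the 6 samples were DFFA, RPS10, COTL1, HNRNPL and PRR13, with Pearson r between 0.9987 and 0.9991. With 6 samples in 2 groups, such a value reflects the gap between the treatments and the order of libraries within them. In both GAPDH and DFFA, for example, AIL replicate 1 was the highest library, at 4100.4 CPM for GAPDH and 218.9 CPM for DFFA.

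**Figure D4:**
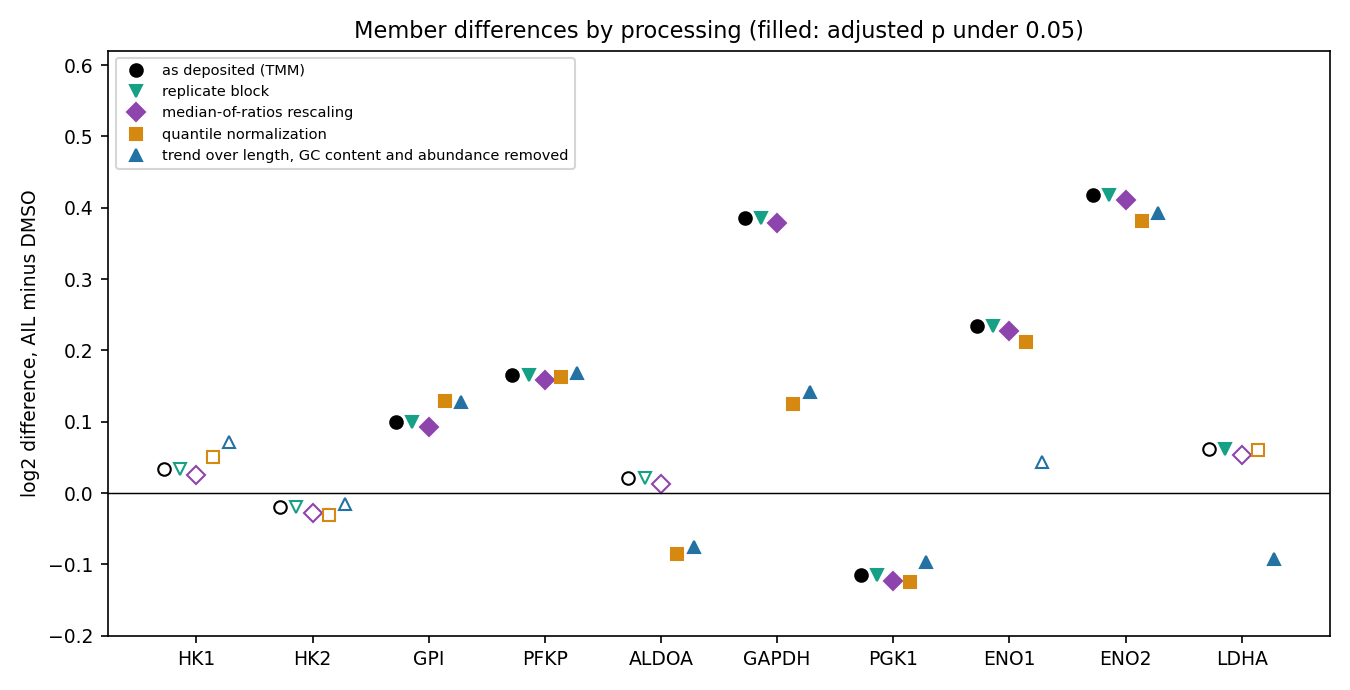
Log2 differences, AIL minus DMSO (y axis), of the 10 glycolytic genes (x axis) as deposited and under 4 alternatives (symbols); filled symbols have an adjusted p under 0.05. GPI, PFKP, PGK1 and ENO2 keep similar values, GAPDH falls to 0.13 and 0.14 in 2 of the alternatives, and ENO1, ALDOA and LDHA lose or change their calls in at least 1.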

How the data were processed

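RNA of 6 samples of cells labelled Saos-2 was sequenced after AIL or DMSO. The authors deposited 1 table of TMM-normalized CPM, per the file name, with 2 decimals. RSEM and edgeR 3.8.5 are named in the submitters' processing notes, with no role. Not given in the sources used here: the aligner, build, gene models and strand setting. Thus reads of overlapping, antisense or near-identical genes may be counted for either gene. Low values were multiples of 1 read, with 99.95 to 99.98% of values within 0.2 reads of a whole number. Rounding kept only 52.4 to 65.1% within 0.1 reads, so no count test was run.

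Differences were tested with limma 3.58.1 (R 4.3.3) on log2(CPM + 1), two-sided, with an intensity trend and no covariate, for the 11069 genes that averaged 1 CPM or more. The threshold was an adjusted p of 0.05 (Benjamini-Hochberg, over all of them). The pseudocount understates changes of low genes. The fit was tested on simulated data. Isozyme ratios were compared by exact permutation in scipy 1.17.1. The genes, neighbouring lists and naming rule were chosen with earlier results of these data known. The rule named the 10 genes, 8 further genes of the route and its factors, up to 3 called genes of each list by smallest p, and 5 genes most like GAPDH. Some genes that the rule named are not reported here.

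Alternatives were pseudocounts of 0.1 and 5, no filter, a mean of 5 CPM, median-of-ratios and quantile scaling, no trend, a replicate block and leaving out each library. Removal of a trend over length, GC content and abundance was chosen after seeing the data, and 95% of tested genes had these properties. Same-numbered AIL and DMSO libraries deviated together (r = 0.159, 0.133 and 0.129 for replicates 1, 2 and 3, each above 0.1). This link rests on the data alone. It entered only the replicate block, while the main fit and the isozyme tests left it out. Depth covers counting error only.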

Additional observations from a re-analysis of the deposited data

How the results depend on the processing

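Of the 10 glycolytic genes, HK1, GPI, PFKP, GAPDH, PGK1 and ENO2 kept direction and side of the threshold under all 15 alternatives. GAPDH ranged from 0.13 to 0.41 on the log2 scale, and its value moved by over 1.5 times with quantile normalization and with the trend over length, GC content and abundance removed. Removing that trend gave 0.044 for ENO1 (limma adjusted p = 0.193), -0.076 for ALDOA and -0.093 for LDHA. ALDOA was -0.085 with quantile normalization. LDHA passed at a pseudocount of 0.1 (0.062, adjusted p = 0.0479), with a mean of at least 5 CPM (0.062, adjusted p = 0.0464) and with the replicate block (0.062, adjusted p = 0.0073), and leaving out 1 library gave 0.049 to 0.073. HK2, not called, ranged from -0.044 to 0.0051 when 1 library was left out. PKM, not called as deposited, was -0.0045 with quantile normalization and -0.14 with the trend removed, and leaving out 1 library gave -0.0094 to 0.033. The count of glycolytic genes called lower was 1 as deposited, 2 with quantile normalization and 3 with the trend removed. Of the genes up to 3-phosphoglycerate, 2 were then called lower in both of these, and of those after it 1 was called higher and 1 lower with the trend removed. The causes of these changes were not tested. Over all genes, 2708 to 3273 were called higher and 2528 to 2924 lower when 1 library was left out, and 3347 and 3121 with the replicate block, which changed no call of the 10 other than that of LDHA.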
